A study of Mus musculus with 2 samples.

Results

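The kinesin superfamily was read from 70 gene probes on Agilent mouse expression arrays, chosen by the array's own gene name (Kif followed by a number and an optional letter, or Kifc1 to Kifc3). These probes belonged to 34 of 19466 named genes. The day 6 group was embryoid body cells made from R1, a line of mouse embryonic stem (ES) cells, after 6 days of direct neural differentiation, which the labels describe as neural precursors. The day 0 group was undifferentiated R1 ES cells, which grew on mitotically inactive fibroblast feeders in medium holding 15% serum and LIF (leukaemia inhibitory factor, 1000 U/ml). Both groups are 1 cell line with no genetic change given in the labels, and serum, LIF and feeder carry-over on day 6 are not stated in the sources used here, so differences of medium or feeders cannot be told apart from differentiation. With a single array per group there is no test, no p-value and no replicate error, and every difference describes these 2 RNA samples. In such bulk samples, more cells of a type and more RNA per cell cannot be told apart.

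Kinesins are motor proteins that walk along microtubules using ATP. In dividing cells some of them separate the spindle poles, move chromosomes, trim microtubule ends and build the midzone that divides the daughter cells. In neurons others carry vesicles, mitochondria and RNA along axons and dendrites, and kinesin-2 motors carry building material into cilia.

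Markers of ES cells were lower on day 6, and most markers of neural progenitors and of neurons were higher. As a scale for the marker counts, 17.8% of all 14967 measured genes passed 2-fold upward on day 6 and 20.0% downward. All 7 ES cell markers were at least 2-fold lower on day 6, and their summed intensity was 31551 on day 6 against 1064810 on day 0. For neurons, 4 of 5 markers were at least 2-fold higher, with summed intensities of 196536 and 32504, and Dcx was not well above background on day 0. The neuron marker under 2-fold was Stmn2, with 24543 on day 6 and 18850 on day 0. For neural progenitors, 4 of 5 were at least 2-fold higher, with sums of 314389 and 37282. The progenitor marker under 2-fold was Nes, with 49114 on day 6 and 33271 on day 0. Among feeder fibroblast markers 5 of 7 were at least 2-fold lower, with sums of 20995 and 120906, and Lox was not well above background on day 6. Of 6 motile ciliated cell markers on the array, 5 were measured and 1 was at least 2-fold higher, with sums of 4671 and 3937. That marker, Ccdc39, had 446 on day 6 and 52.7 on day 0, at least 3.74-fold higher. Ccdc39 and Dnah9 were not well above background on day 0, nor was Dnah5 on either day. All sums are of intensities before scaling, and the 75th percentile was 4371 on the day 6 array and 3746 on the day 0 array. After scaling, the median log2 difference of the 5 measured motile ciliated cell markers was -0.08. The parts that changed cell types or feeder RNA have in the kinesin values were not tested.

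Transport kinesins of neurons were higher on day 6, and kinesins of the mitotic spindle stayed within 2-fold. Signal well above background on 1 or both arrays was found for 33 of the 34 kinesin genes. Where a gene had several probes, the brightest by mean log2 intensity gave its value, and levels are processed intensities in array units. Differences are day 6 minus day 0 log2 intensities after each array's 75th percentile was subtracted. Day 6 was at least 2-fold higher for 8 of the 33, where 17.8% of all 14967 measured genes were, and at least 2-fold lower for 1, where 20.0% of all genes were. At 4-fold, 5 kinesins were higher and 1 lower, where 7.36% and 8.35% of all genes were. The remaining 24 were under 2-fold in either direction. By class, 7 of 10 neuronal transport kinesins, 1 of 6 ciliary kinesins, 0 of 10 mitotic kinesins and 0 of 7 other kinesins were at least 2-fold higher. The classes follow main known roles but were chosen with earlier results of these data known, so their contrast is not an independent result. The class median was 1.80 for neuronal transport, 0.75 for ciliary, -0.33 for mitotic and -0.25 for other kinesins, beside -0.09 over all measured genes.

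**Figure D1:**
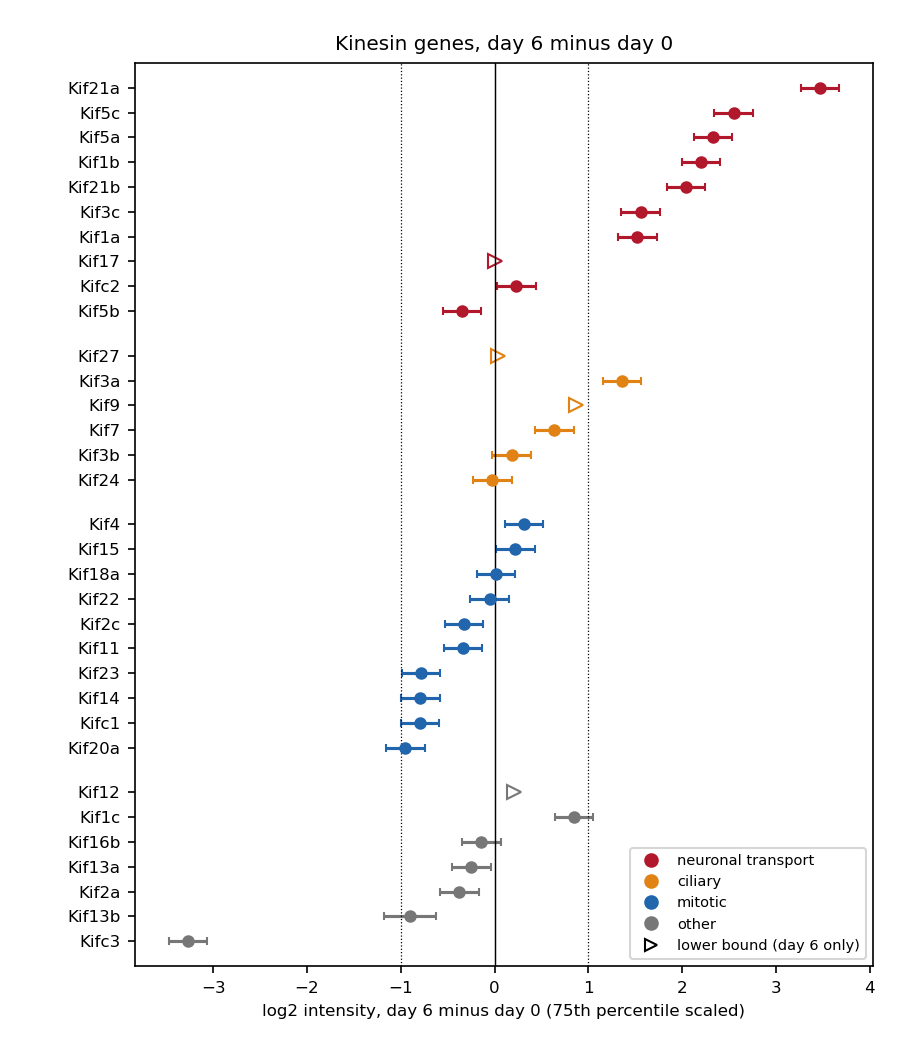
Each point is the day 6 minus day 0 difference in log2 intensity of a kinesin gene after scaling to the 75th percentile of the array, with bars of 1 software error SD and dotted lines at 2-fold. Open triangles are lower bounds for the 4 genes well above background on day 6 only, and that of Kif17, at 0, gives no fold. Kif21a stands farthest to the right at 3.47 and Kifc3 farthest to the left at -3.27, while the 10 mitotic genes lie between -0.95 and 0.31.

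The sequences printed first are of 2 probes of 60 bases whose files' coordinates in the mm7 genome build (NCBI build 35) cover a much longer stretch, as a probe across a splice junction would. They are shown because Kif21a had the largest difference among kinesins well above background on both arrays, and Kif3a was the ciliary kinesin past 2-fold. The Kif21a probe (accession NM_016705) lies at chr15:91018696-91020081 on the minus strand, and the Kif3a probe (NM_008443) lies at chr11:53551693-53554759 on the plus strand. Both are given 5′ to 3′ in lower case.
Kif21a: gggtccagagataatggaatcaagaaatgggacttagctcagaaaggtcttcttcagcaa
Kif3a: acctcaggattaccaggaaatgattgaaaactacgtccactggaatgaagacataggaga

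Kif21a and Kif21b are kinesin-4 motors that act on microtubule growth, and both are found in neurons. The intensity of Kif21a was 18325 on day 6 against 1417 on day 0, 11.1-fold higher, with a log2 difference of 3.47 ± 0.21 (the SD here and below is the error given by the scanner software). The probe printed above had 3719 on day 6 against 277 on day 0, a log2 difference of 3.52 ± 0.23. The Kif21a probes thus differed by 0.05 log2 units, less than their software error. Kif21b had 18271 on day 6 against 3802 on day 0, a log2 difference of 2.04 ± 0.20 (4.12-fold). A second Kif21b probe had 411 and 280, a log2 difference of only 0.33 ± 0.24, and the remaining probe was not well above background on either array.

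The heavy chains of conventional kinesin (kinesin-1), which pulls many cargoes outward along axons, were not alike. Kif5c, a form enriched in neurons, had 60257 on day 6 against 8830 on day 0, a log2 difference of 2.55 ± 0.20 (5.85-fold). Kif5a, the other neuron-enriched form, had 37646 on day 6 against 6414 on day 0, a log2 difference of 2.33 ± 0.20 (5.03-fold). Kif5b, the form found in most cell types, had 118655 on day 6 against 129433 on day 0, a log2 difference of -0.35 ± 0.20. A second probe of each gene gave a log2 difference of 1.86 for Kif5c, 0.73 for Kif5a and -0.42 for Kif5b. That of Kif5a was close to background on day 0, with 224 on day 6 against 116 on day 0 and a software error SD of 0.35. Kif5b ranged over the alternative settings between -0.46 and 0.04, so its sign is not settled. The order of the 3 heavy chains was therefore the same by either probe, with Kif5b lowest in both. The Kif5a probes are filed under different transcripts, NM_001039000 (transcript variant 2) for the larger difference and NM_008447 (transcript variant 1) for the smaller. The parts that transcript and low signal have in this gap were not tested.

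Kinesin-3 motors carry synaptic vesicle precursors and other membrane cargo. Kif1a, the main carrier of synaptic vesicle precursors, had 47383 on day 6 against 14135 on day 0, a log2 difference of 1.52 ± 0.20 (2.87-fold). Its second probe had 863 and 451, a log2 difference of 0.71 ± 0.22. Kif1b makes splice products with different tails that take different cargo, and its probes differed by the transcript they were filed under, so 3 of the 4 are printed here. The printed probe of the 2 for NM_207682 (transcript variant 2) lies at chr4:148166633-148166692 of mm7, and the probes for NM_008441 (transcript variant 1) lie at chr4:148227174-148227233 and chr4:148225749-148225808. All are on the minus strand, with the printed variant 2 probe further along the direction of transcription.
Kif1b variant 2 probe: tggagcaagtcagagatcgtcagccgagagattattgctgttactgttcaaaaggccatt
Kif1b variant 1, first probe: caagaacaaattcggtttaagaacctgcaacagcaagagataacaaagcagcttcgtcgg
Kif1b variant 1, second probe: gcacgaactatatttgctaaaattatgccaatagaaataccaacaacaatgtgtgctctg

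The printed variant 2 probe had 25260 on day 6 against 4714 on day 0, a log2 difference of 2.20 ± 0.20 (4.59-fold). The first variant 1 probe had 3703 on day 6 against 3572 on day 0, a log2 difference of -0.17 ± 0.20. The second variant 1 probe had 896 on day 6 against 820 on day 0, a log2 difference of -0.09 ± 0.21. This variant 2 probe thus lay 2.37 log2 units above the first variant 1 probe, several times their software error. Whether the variant 1 probes also bind variant 2 transcripts was not tested.

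**Figure D2:**
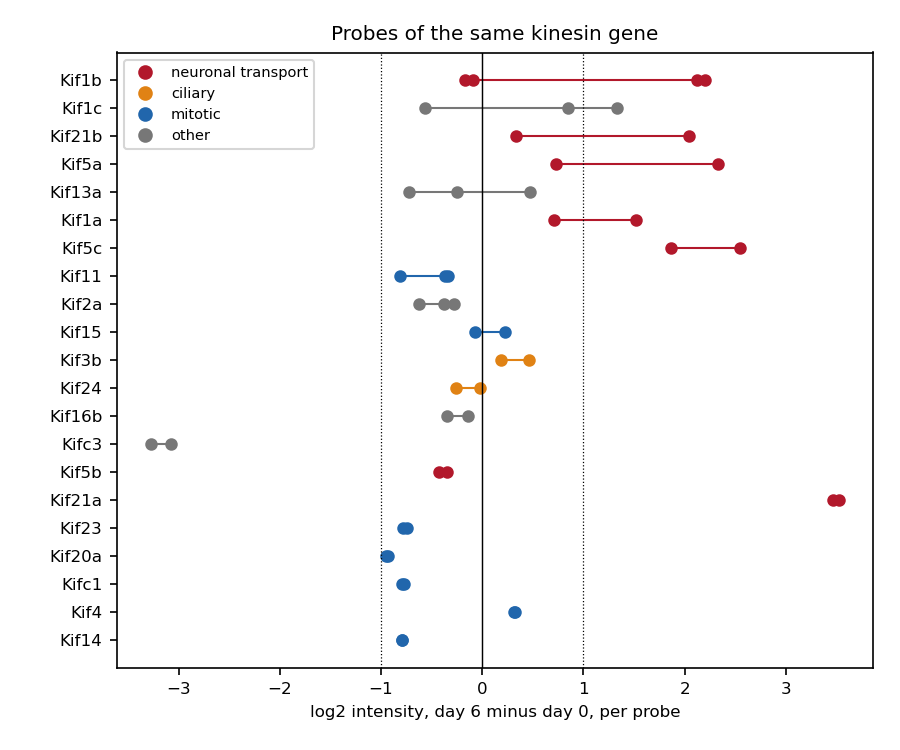
Each point is the day 6 minus day 0 log2 difference of 1 probe, for the 21 kinesin genes with more than 1 probe well above background on both arrays, ordered by the distance between their outermost probes (line). Kif1b is at the top with probes 2.37 log2 units apart, and Kif23, Kif20a, Kifc1, Kif4 and Kif14, all mitotic, are at the bottom with probes at most 0.04 apart. The probes of Kif20a overlap, as do those of Kif4, and the fainter Kif14 probe was close to background.

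Of the remaining transport kinesins, 1 of 3 was past 2-fold. Kif3c, which pairs with Kif3a, had 4303 on day 6 against 1253 on day 0, a log2 difference of 1.56 ± 0.21 (2.94-fold), and its other probe was not well above background on either array. Kifc2, a minus-end-directed motor described in mouse neurons, had 1086 on day 6 against 794 on day 0, a log2 difference of 0.23 ± 0.21. Kif17, a homodimeric kinesin-2 that carries a glutamate receptor subunit in mouse dendrites, had 109 on day 6 and 69.0 on day 0. It was well above background on day 6 only and too near background for a fold, and neither array read its other 2 probes above that limit. At probe level, 10 of the 18 neuronal transport probes well above background on both arrays were at least 2-fold higher, and the 4 below 0 were those of Kif5b and of Kif1b variant 1.

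**Figure D3:**
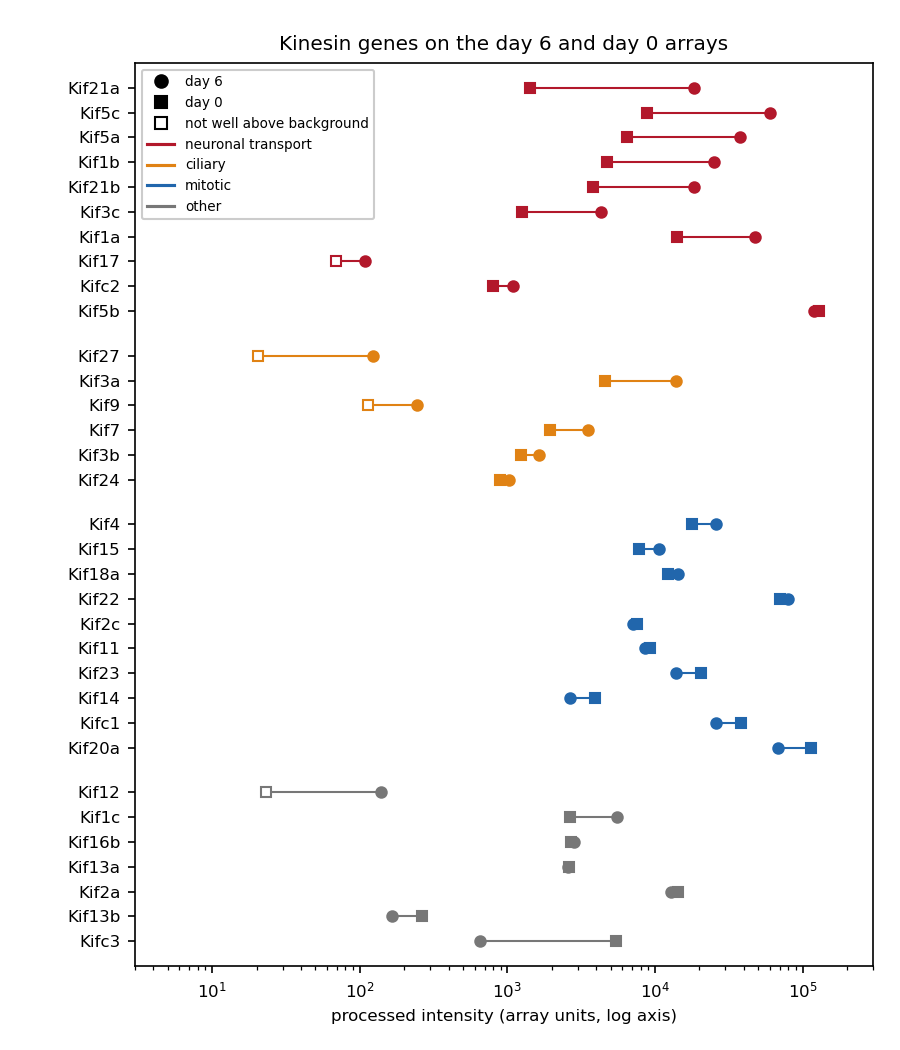
Processed intensity of each kinesin gene on the day 6 array (circles) and the day 0 array (squares), on a log axis before scaling, with open symbols where the probe was not well above background. The widest gaps among genes well above background on both arrays are those of Kif21a (18325 against 1417) and Kifc3 (657 against 5428), and levels are comparable within a gene only.

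Ciliary kinesins were mostly under 2-fold. Kif3a, a motor subunit of the kinesin-2 that carries cargo into cilia, had 13824 on day 6 against 4620 on day 0, a log2 difference of 1.36 ± 0.20 (2.56-fold). Its partner Kif3b had 1625 on day 6 against 1229 on day 0, a log2 difference of 0.18 ± 0.21, and a second probe gave 0.46. The subunits of the same motor therefore differed by unequal amounts. Kif7, which acts in Hedgehog signalling at the tip of the cilium, had 3540 on day 6 against 1950 on day 0, a log2 difference of 0.64 ± 0.20. Kif24, a kinesin that restrains the start of cilium formation, had 1025 on day 6 against 894 on day 0, a log2 difference of -0.02 ± 0.21. Both were under 2-fold.

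The ciliary members Kif9 and Kif27 were well above background on day 6 only. Kif9, known from motile cilia and sperm tails, had 244 on day 6 and 114 on day 0, at least 1.83-fold higher. Kif27, a relative of Kif7 linked to motile cilia, had 123 on day 6 against 20.6 on day 0, with a bound of 1.03-fold higher. That Kif27 probe lies on the strand opposite to the RefSeq gene. The Kif27 probe on the gene's own strand had 106 on day 6 and 20.5 on day 0. With members at their bounds the ciliary median was 0.41 rather than 0.75, so the class median rests on signals near background.

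All 10 mitotic kinesins were under 2-fold, and 3 of them lay above 0. The spindle pole motor Kif11 (Eg5) had 8557 on day 6 against 9272 on day 0, a log2 difference of -0.34 ± 0.20, and its other probes gave -0.37 and -0.81. Kif15, which helps to keep the spindle bipolar, had 10596 on day 6 against 7790 on day 0, a log2 difference of 0.22 ± 0.20, and a second probe gave -0.07, so its probes differ in sign. Kifc1, a minus-end-directed motor that focuses spindle poles, had 25754 on day 6 against 38212 on day 0, a log2 difference of -0.79 ± 0.20. Its probes carry an accession (NM_053173) that RefSeq gives to the closely related gene Kifc5b, and they lie on the strand of Kifc5b, so the Kifc1 value is uncertain between these copies.

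Among motors of chromosomes and kinetochores, Kif4, a chromosome-arm and midzone kinesin, had 25938 on day 6 against 17934 on day 0, a log2 difference of 0.31 ± 0.20. Kif22 (Kid), which pushes chromosome arms outward, had 79129 on day 6 against 70434 on day 0, a log2 difference of -0.05 ± 0.20. Kif18a, which dampens chromosome movement at the metaphase plate, had 14398 on day 6 against 12234 on day 0, a log2 difference of 0.01 ± 0.20. Kif2c (MCAK), which takes apart microtubule ends at kinetochores, had 7052 on day 6 against 7597 on day 0, a log2 difference of -0.33 ± 0.20. None of these 4 genes was past 2-fold, and over the alternative settings Kif22 lay between -0.17 and 0.31 and Kif18a between -0.10 and 0.14, on both sides of 0.

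With Kifc1, the lowest values of the mitotic class were those of Kif20a, Kif14 and Kif23. Kif20a, which acts in the central spindle, had 68675 on day 6 against 113754 on day 0, a log2 difference of -0.95 ± 0.20, or 1.93-fold lower. Kif14, which acts in cytokinesis, had 2646 on day 6 against 3925 on day 0, a log2 difference of -0.79 ± 0.20. Kif23 (MKLP1), the motor of the centralspindlin complex, had 13913 on day 6 against 20498 on day 0, a log2 difference of -0.78 ± 0.20. Each of these was measured by a second probe within 0.04 log2 units of the first, although the Kif20a probes overlap. The second Kif14 probe was close to background, with 106 on day 6 and 157 on day 0 and a software error SD of 0.38. Its closeness to the first Kif14 probe therefore adds little. The differences are larger than the software error but short of 2-fold, and Kif20a moved with the scaling, to -1.07 with median scaling and -0.58 with quantile normalization.

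**Figure D4:**
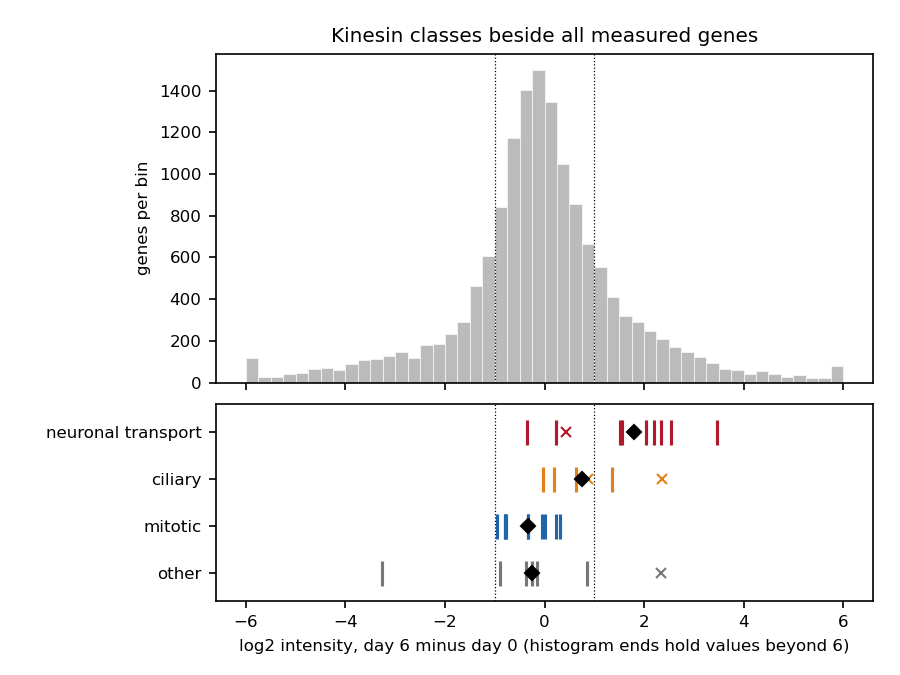
The histogram shows the day 6 minus day 0 log2 difference of 14967 measured genes, and the ticks beneath show each kinesin gene by class, with crosses for genes well above background on day 6 only and a black diamond at the class median. The neuronal transport median lies at 1.80 and the mitotic median at -0.33, and dotted lines mark 2-fold. Histogram, crosses and medians use measured differences and not bounds. The crosses of Kif27 (2.35) and Kif12 (2.34) therefore lie far above their bounds of 0.04 and 0.21.

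The promoters of the mitotic kinesins shared a sequence feature that the member rule did not use. The cell cycle genes homology region (CHR), an element known from promoters of genes expressed late in the cell cycle, was searched as TTTGAA on both strands in RefSeq windows of 300 bases, which run 250 bases before to 50 bases after the annotated start (build GRCm38.p6). Windows were given for 27 of the 34 genes. The CHR letters were found in 8 of 9 mitotic genes, 1 of 6 neuronal transport genes (Kif1a), 1 of 6 ciliary genes (Kif27) and 0 of 6 other genes, beside 20.2% of 27025 genes and 17.9% of all such windows. Kif18a was the mitotic gene without it. The CCAAT box, searched as CCAAT on both strands, was found in 6 of 9 mitotic and 4 of 6 ciliary genes, beside 41.1% of genes. A match is a run of letters and not a shown site, and the motifs were not tested against the array values.

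The windows of 3 mitotic kinesins with the CHR letters near the annotated start, and that of Kif21a, which holds none, are printed 5′ to 3′ on the gene's strand, with matches to TTTGAA or its reverse complement in capitals. The Kif11 window is chr19:37376132-37376431 (plus strand), the Kif23 window chr9:61946750-61947049 (minus strand), the Kif4 window chrX:100625815-100626114 (plus strand) and the Kif21a window chr15:91049902-91050201 (minus strand).
Kif11: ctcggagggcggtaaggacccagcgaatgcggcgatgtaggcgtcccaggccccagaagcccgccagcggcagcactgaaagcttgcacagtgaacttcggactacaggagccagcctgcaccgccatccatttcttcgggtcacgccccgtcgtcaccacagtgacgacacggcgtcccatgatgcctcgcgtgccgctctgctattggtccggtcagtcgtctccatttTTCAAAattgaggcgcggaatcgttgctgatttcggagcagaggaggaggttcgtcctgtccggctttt
Kif23: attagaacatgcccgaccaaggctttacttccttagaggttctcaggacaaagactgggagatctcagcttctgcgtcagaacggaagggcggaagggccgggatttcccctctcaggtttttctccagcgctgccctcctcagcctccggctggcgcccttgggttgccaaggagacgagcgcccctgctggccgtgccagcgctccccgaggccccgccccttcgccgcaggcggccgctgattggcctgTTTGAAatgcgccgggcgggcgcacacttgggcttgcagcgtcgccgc
Kif4: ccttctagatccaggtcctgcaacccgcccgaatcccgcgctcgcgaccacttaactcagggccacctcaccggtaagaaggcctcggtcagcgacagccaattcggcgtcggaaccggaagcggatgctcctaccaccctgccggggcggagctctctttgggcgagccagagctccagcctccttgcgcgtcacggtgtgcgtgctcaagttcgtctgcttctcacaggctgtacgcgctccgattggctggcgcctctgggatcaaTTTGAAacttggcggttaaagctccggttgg
Kif21a: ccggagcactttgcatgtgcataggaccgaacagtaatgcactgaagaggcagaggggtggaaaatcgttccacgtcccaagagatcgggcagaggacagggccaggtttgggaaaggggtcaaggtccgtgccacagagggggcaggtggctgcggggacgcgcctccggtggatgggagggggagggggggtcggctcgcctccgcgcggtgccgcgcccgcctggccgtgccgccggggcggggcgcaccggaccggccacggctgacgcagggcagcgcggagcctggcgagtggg

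In the printed windows the first base of the match lay at position -19 from the annotated start in Kif11, 3 in Kif23 and 20 in Kif4. All of these lay close to the start, as did 1 match each in Kif15 (-19), Kif22 (-17) and Kifc1 (2). The matches of Kif2c and Kif14 lay farther out, at positions -103 and -228, as did further matches in Kif15 (-234) and Kif22 (-215).

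**Figure D5:**
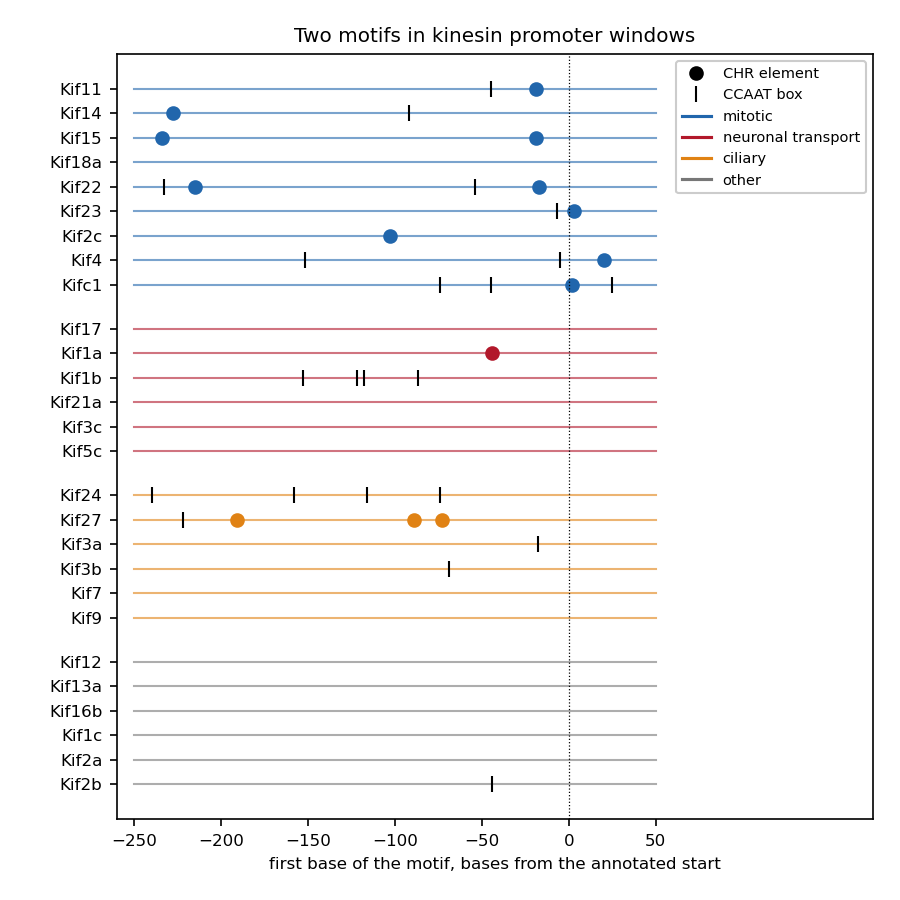
Lines are the promoter windows of 27 kinesin genes in bases from the annotated start, with dots at matches to the CHR letters and black ticks at the CCAAT box, both on either strand and pooled where a gene has more than 1 window. Dots stand in 8 of the 9 mitotic rows.

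The other kinesins held the single gene at least 2-fold lower. Kifc3, a minus-end-directed motor known from epithelial cells, had 657 on day 6 against 5428 on day 0, a log2 difference of -3.27 ± 0.21 (9.64-fold lower), and its second probe gave -3.07. Markers of ES cells and 5 of 7 markers of feeder fibroblasts moved the same way, with the summed levels given above. The feeder markers Pdgfrb (0.40) and Col3a1 (0.22) had log2 differences above 0. The part of either cell type in the Kifc3 value was not tested. Kif13b, a motor of membrane cargo, had 165 on day 6 against 264 on day 0, a log2 difference of -0.90 ± 0.28, and it passed 2-fold with median scaling (-1.02).

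Kif1c, a widely expressed kinesin-3, had 5539 on day 6 against 2640 on day 0, a log2 difference of 0.85 ± 0.20, and its other probes gave 1.34 and -0.56. Kif13a, a relative that carries endosomal cargo, had 2576 on day 6 against 2622 on day 0, a log2 difference of -0.25 ± 0.20, and its other probes gave 0.47 and -0.72. The probes of both genes disagreed in sign, so no direction is given for either. The Kif1c probe below 0 was close to background, with 123 on day 6 against 156 on day 0 and a software error SD of 0.35. The brighter Kif1c probes both lay above 0. Kif2a, a microtubule depolymerase of spindles and of growing neurites, had 12872 on day 6 against 14307 on day 0, a log2 difference of -0.38 ± 0.20. Kif16b, an endosome motor, had 2834 on day 6 against 2679 on day 0, a log2 difference of -0.14 ± 0.20. Kif12 was well above background on day 6 only, with 138 against 23.3 on day 0, at least 1.16-fold higher. Kif2b, a relative of Kif2a, was not well above background on either array.

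Agreement between probes of a gene was measured in the 21 kinesin genes with at least 2 probes well above background on both arrays. In 14 of them all probes lay within 0.5 log2 units of each other, and in 5 (Kif1b, Kif1c, Kif21b, Kif5a and Kif13a) the probes lay more than 1 log2 unit apart. The 14 include Kif20a and Kif4, whose probes overlap and so are not independent readings. In Kif1c and Kif5a the lowest value came from a probe close to background, as given above.

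Partners of the kinesins were read from lists of their own. The counts of each list stand beside 17.8% of all measured genes that passed 2-fold upward on day 6 and 20.0% downward. Of 16 measured kinesin light chains and cargo adaptors, 7 were at least 2-fold higher and 0 lower, with a median of 0.81. Fez1, a kinesin-1 adaptor of axon growth, had the highest log2 difference of that list (4.51), with 66629 on day 6 and 2510 on day 0 (22.8-fold). Trak2, a mitochondrial adaptor, had the lowest (-0.42), with 2819 and 3228. Among the light chains, named after their values were seen, Klc1 was 5.64-fold and Klc2 4.92-fold higher, while Klc3 and Klc4 had log2 differences of -0.23 and 0.17. Kifap3, the non-motor subunit that joins Kif3a and Kif3b, also named after its values were seen, had 18209 on day 6 against 15094 on day 0, a log2 difference of 0.05 ± 0.20.

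Of 20 spindle and midbody partners, 0 were at least 2-fold higher and 1 lower, with a median of -0.32, close to the mitotic kinesin median of -0.33. The list includes Cenpe (0.30), which is itself a mitotic kinesin that the array names outside the member rule. Ckap5, a microtubule polymerase, had the highest log2 difference (0.82), and Anln, an actin-binding protein of the cleavage furrow, the lowest (-1.11, with 6276 on day 6 against 11650 on day 0, 2.17-fold lower). Of 18 intraflagellar transport genes, 8 were at least 2-fold higher and 2 lower, beside 17.8% and 20.0% of all genes. Their median was 0.85. Ift81, which binds tubulin cargo, was 3.69-fold higher, and Traf3ip1 was 2.60-fold lower.

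Cytoplasmic dynein, which works with dynactin, walks in the opposite direction to most kinesins. Of 20 measured dynein and dynactin genes, 2 were at least 2-fold higher and 0 lower, beside 17.8% and 20.0% of all genes, and their median was 0.31. The light intermediate chain Dync1li2 was 3.75-fold higher, and the light chain Dynll1 had a log2 difference of -0.74. Of 14 genes for microtubule-associated proteins and tubulins of neurons, 9 were at least 2-fold higher and 0 lower, with a median of 1.63. This list shares most of the neuron markers, Dcx among them, so its count is not separate from theirs. Dcx, which binds microtubules in young neurons, was at least 93.6-fold higher, and the tubulin-binding protein gene Stmn1 had a log2 difference of -0.15.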

How the data were processed

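Cy3-labelled total RNA was hybridised to 1-colour Agilent arrays of design 014868, 1 per group, on 1 slide read in 1 scan, so array position and group cannot be told apart. Per the file headers, the authors' deposited intensity values were extracted with Feature Extraction 9.5.3.1, background-subtracted and detrended, with a surrogate value for spots not above background and probe positions in build mm7. The authors also deposited a log2 value table whose columns have equal distributions (sorted values differ by at most 0.000469). Its making is not described in the labels or headers.

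Control and outlier spots were left out, log2 intensities of spots of a probe were averaged, and each array's 75th percentile was subtracted (4371 on day 6, 3746 on day 0). None of the kinesin spots was an outlier or saturated. Of 41043 probes measured on both arrays, 65.5% were well above background on day 6, against 61.5% on day 0. Gene names came through RefSeq (GRCm38.p6): 22903 by accession, 6633 by symbol, 3091 by an older symbol and 8416 unnamed. Kinesins kept the array's name, which RefSeq shared for 68 of 70 probes. Of the 70, 61 were well above background on at least 1 array and 56 on both. Strand could be compared for 56 probes, and 3 (1 of Kif27, 2 of Kifc1) lay opposite to the RefSeq gene.

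With 1 array a group, called means past 2-fold. A gene bright enough on 1 array only has a bound in place of a fold, written "at least N-fold": its normalized value on that array over a floor on the other. The floor is the dimmest intensity counted as well above background (85.2 on day 6, 102 on day 0), or the probe's own value where that is higher. The software error SD combines both arrays' errors and rests on a multiplicative setting of 0.1. Variation between cultures is not in it, and precision is limited by the number of arrays. The 245 probes spotted 10 times had a median SD between spots of 0.06 log2 units on day 6 and 0.07 on day 0.

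The scripts recovered known folds on simulated data for genes well above background on both arrays. Genes well above background on day 6 only, and genes whose probes differ in their true fold, were not simulated. Every member may be named, and of each partner list the genes with the highest and lowest signed difference were named. Members, classes and lists were chosen with earlier results of these data known. Classes follow each kinesin's main known role. Alternatives were normexp (limma 3.58.1, offset 50), no background subtraction, median and quantile scaling, the deposited log2 table, both other filters on dim probes, the mean of a gene's probes, and bounds for dim members. The sequence of a further Kif1b probe is not reported here. Python 3.11.15 and R 4.3.3 were used.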

Additional observations from a re-analysis of the deposited data

How the results depend on the processing

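The count of kinesin genes at least 2-fold higher was 8 under each of the 9 alternatives, and the count lower was 1 under all but median scaling, where it was 3 (Kifc3 with Kif20a and Kif13b). The alternative with bounds could not change these counts, since they use bounds in every setting. Genes let in by dropping the background filter could not be counted either. Under median scaling all genes had a median of -0.21, against -0.09 under the 75th percentile. The count of 5 kinesins at least 4-fold higher was less stable. When the probes of each gene were averaged, Kif5a (1.53), Kif21b (1.19) and Kif1b (1.01) fell under 4-fold, while Kif21a (3.50) and Kif5c (2.21) did not. Kif21b also fell under 4-fold with median scaling (1.93). Class medians are given where they shifted beyond the members' median software error. The neuronal transport median was 2.04 with only genes well above background on both arrays and 1.15 when the probes of each gene were averaged. For ciliary kinesins it was 0.54 after normexp correction, 0.54 without subtracting background, 0.41 when both arrays had to be well above background, and 0.41 with dim members at their bound. Except for the changed filter, the averaged probes and the bounds, which use other members or values by construction, the cause was not tested. The medians of mitotic and other kinesins shifted less under all 9. Of 293 values of single genes, 23 moved and 0 of the called ones changed sign. No paired analysis was possible because each group had 1 array. Signal over background limits Kif9, Kif12, Kif17 and Kif27 to bounds.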

Other observations

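RefSeq names 4 further kinesin genes among probes that the array lists under names outside the member rule, and these were looked up after the kinesin values were seen. Cenpe (Kif10), a kinetochore motor, had 77269 on day 6 against 53739 on day 0, a log2 difference of 0.30 ± 0.20, and its other probes gave 0.48 and 0.23. Cenpe was also counted among the spindle and midbody partners above. Kif20b, listed as Mphosph1 and known from cytokinesis, had 11222 on day 6 against 15833 on day 0, a log2 difference of -0.72 ± 0.20, with -0.57 and -0.45 by its other probes. Kif18b, which acts at the ends of spindle microtubules, had 6675 on day 6 against 8719 on day 0, a log2 difference of -0.61 ± 0.20. These 3 mitotic kinesins were under 2-fold. Kif26b, known from kidney development in mouse, had 1470 on day 6 and 385 on day 0, and was 3.27-fold higher on day 6.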
